A study of Mus musculus with 6 samples.

Results

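The genes described here are 38 innate sensing genes of the mouse: Toll-like receptors (TLRs), their co-receptors and adaptors, the kinases and ubiquitin ligases below them, cytosolic sensors, and the NF-kB proteins they activate. They were chosen by symbol, and each of the 38 matched 1 of the 24815 Ensembl identifiers in the deposited tables. After the filter on low counts 37 of the 38 were tested among 12222 genes, and Cd14 was not. Ddx58 and Tmem173 carry the newer symbols Rigi and Sting1.

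TLRs are membrane proteins that bind microbial molecules outside the cell or inside endosomes. Most signal through the adaptor MyD88 to IRAK kinases and the ubiquitin ligase TRAF6, and a smaller group through TRIF to TRAF3 and the kinase TBK1. Cytosolic sensors of RNA, DNA and bacterial cell wall join the same routes, which end in NF-kB and interferon regulatory factors, while inflammasome proteins activate caspase-1. Blood progenitors are known to carry some of these receptors, and signals through them can push progenitors towards myeloid cells.

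RNA was sequenced from common myeloid progenitors of C57BL/6 fetal liver, taken at embryonic day E13.5. The sorted cells carried CD34 and c-Kit and little Fc receptor, and lacked Sca-1, CD41, CD48 and the lineage markers B220, CD3, CD4, CD5, CD8, Gr-1 and TER-119. The 3 wild-type libraries are named A, F and L, and the 3 libraries homozygous for a germline deletion of the Gata2 -77 enhancer (-77-/-) are C, D and Q. The labels give no treatment, do not give the sex of the embryos and do not say whether a library is 1 embryo or a pool, so the p-values measure the spread between these libraries, which may be technical. The comparison asks which transcripts of the progenitors depend on this distal element of Gata2, which encodes a transcription factor of early blood cells.

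Libraries held 14473913 to 30596279 expected counts. Gata2 stood at 78.6, 57.4 and 63.9 CPM (counts divided by the library total after TMM scaling) in wild types A, F and L and at 8.92, 16.5 and 17.8 CPM in mutants C, D and Q. The groups did not overlap for Gata2, which lies outside the deleted element, so reads are still possible in the mutant. Its log2 change (mutant over wild type) was -2.20 with all libraries, which was not called (edgeR adjusted p = 0.068). Without mutant C it was -1.97, which was called (edgeR adjusted p = 0.0019). A gene not called in the fit of all libraries may therefore still differ between the genotypes. Mutant C stood apart from the rest. The average read in it came from a gene of 1781 bases, against 2834 to 3124 bases in the other 5 libraries. Counts of genes called and median changes are therefore given with and without mutant C, and values of single genes in 1 or both of these fits. Xist, the RNA of the inactive X chromosome, was at 4.02 and 6.94 CPM in wild type A and mutant C and at 616 to 888 CPM in the other 4 libraries. Ddx3y, a Y-linked gene, was at 87.2 and 60.0 CPM in the same 2 libraries and at most at 0.0631 CPM elsewhere. Kdm5d, also Y-linked, was at 68.1 and 31.7 CPM in these 2 libraries and at 3.73 to 5.21 CPM elsewhere. Of the gate markers, Cd34 stood at 685 to 862 CPM in the wild type and 998 to 1254 CPM in the mutant, and Kit at 317 to 337 and 102 to 292 CPM. The groups did not overlap for either, and neither was called (edgeR adjusted p = 0.58 for both with all libraries and 0.37 for both without mutant C). Ly6a, a Sca-1 gene, had 0.437 to 3.08 CPM over the 6 libraries. Fcgr3, an Fc receptor gene, had 25.2 to 31.8 CPM in the wild type. In mutants C, D and Q it had 77.1, 24.3 and 25.1 CPM. Fcgr2b, another Fc receptor gene, had 12.6 to 15.1 CPM in the wild type. In mutants C, D and Q it had 26.8, 9.70 and 8.99 CPM. Neither was called (edgeR adjusted p = 0.60 and 0.88 with all libraries, 0.50 and 0.17 without mutant C).

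By median, wild-type progenitors held far less transcript of the TLRs than of their adaptors. Levels between genes are compared in deposited TPM (transcript abundance corrected for gene length, with the same total in each library). The 10 TLR genes had a median of 0.865 TPM over the wild-type means, and the 4 adaptors had a median of 20.1 TPM. The 2 sets overlapped, since Tlr2 at 10.7 TPM was above the adaptors Tirap and Ticam1 at 7.82 and 6.56 TPM. Every other TLR of the 10 was below all 4 adaptors. Over the 38 genes the wild-type means ran from 0.143 to 101 TPM, with 16 at 10 TPM or more, 13 from 1 to 10 TPM and 9 under 1 TPM. The median was 6.10 TPM, beside 19.6 TPM over the 12222 genes tested.

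**Figure D1:**
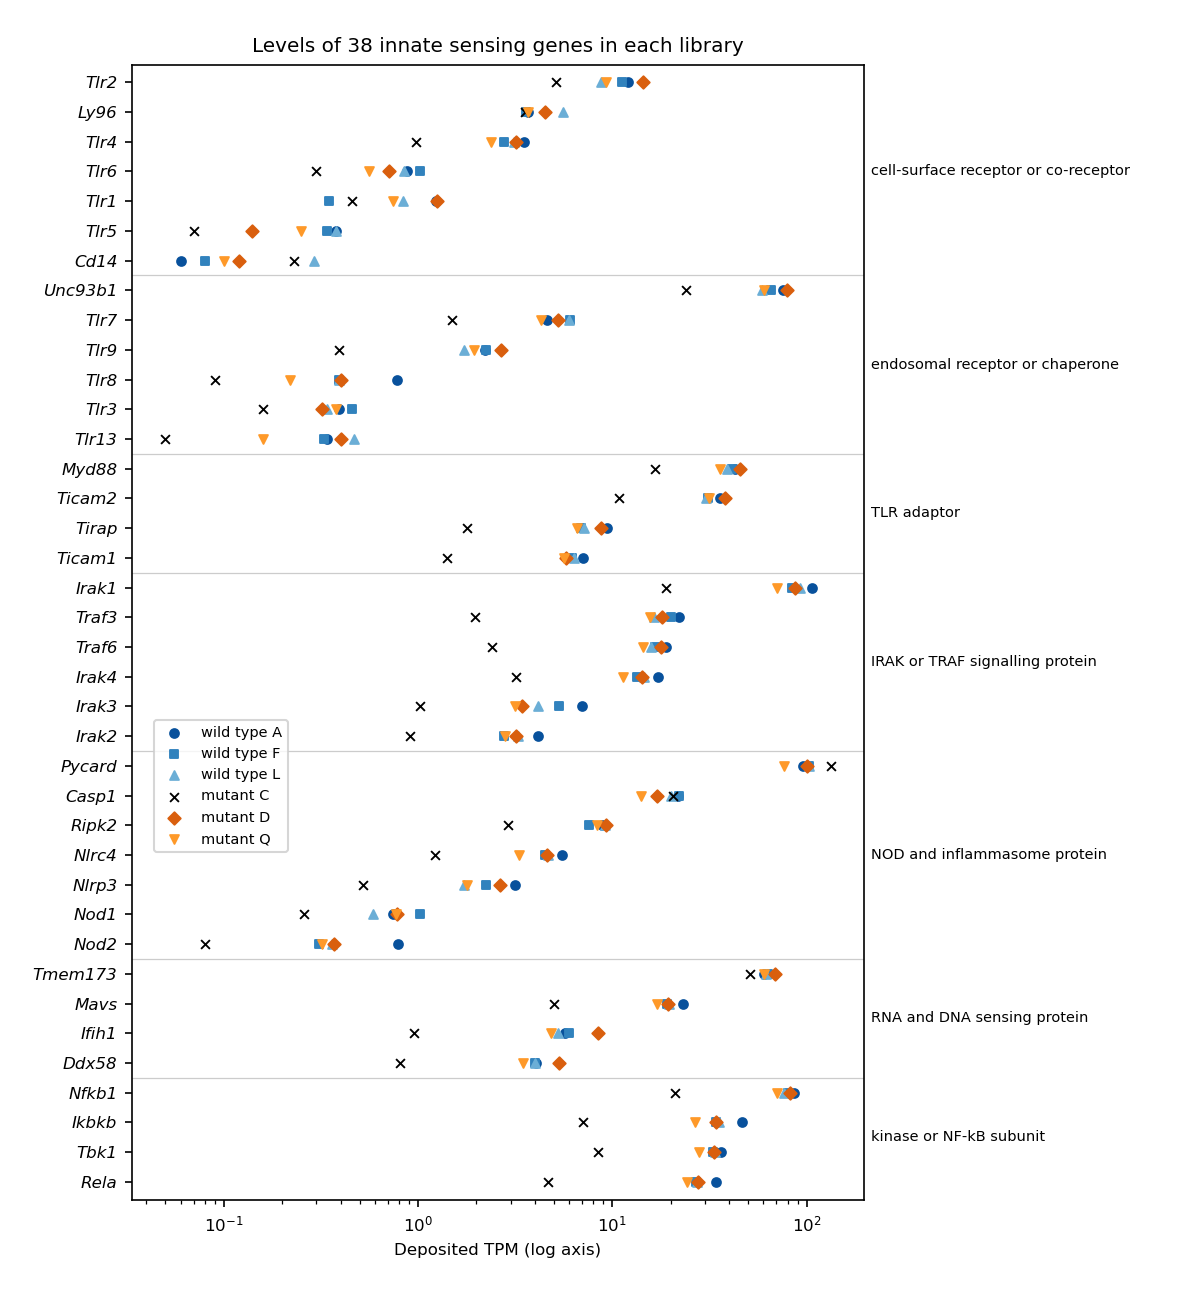
Deposited TPM on a log axis for the 38 genes, grouped by role and ordered by wild-type mean, with 1 symbol per library. The TLR genes other than Tlr2 lie under 10 TPM in every library, while Irak1, Pycard, Nfkb1, Unc93b1 and Tmem173 lie above 50 TPM in the wild-type libraries. Mutant C (crosses) lies lowest for most genes on this scale, as it did over the tested genes as a whole.

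Among the TLRs, Tlr2 had the highest level. Tlr2, the receptor for bacterial lipoproteins, stood at 12.1, 11.2 and 8.74 TPM in wild types A, F and L. Tlr7, an endosomal receptor for single-stranded RNA, followed at 4.59, 6.07 and 6.00 TPM. Tlr4, the receptor for bacterial lipopolysaccharide, had 3.50, 2.76 and 3.12 TPM, and Tlr9, the receptor for unmethylated CpG DNA, had 2.22, 2.25 and 1.72 TPM. The ranges of these 4 receptors did not overlap, so their order held in each wild-type library.

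The other 6 TLRs were close to the limit of what these libraries can measure. Their wild-type means were 0.920 ± 0.0964 TPM (SD, n = 3) for Tlr6, 0.810 ± 0.446 for Tlr1, 0.520 ± 0.225 for Tlr8, 0.397 ± 0.0603 for Tlr3, 0.380 ± 0.0781 for Tlr13 and 0.367 ± 0.0231 for Tlr5. Wild-type ranges overlapped between every 2 neighbours in that order. Tlr1 and Tlr6, the partners of TLR2, are similar in sequence and lie side by side on chromosome 5 (64924679 to 64933563 and 64952031 to 64960097, mm10), so how RSEM split reads between them is uncertain.

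The accessory proteins of TLR4 differed in level. Ly96, which encodes the lipopolysaccharide-binding subunit MD-2, stood at 3.68, 3.61 and 5.61 TPM in wild types A, F and L, each above Tlr4 in the same library. Cd14, which delivers lipopolysaccharide to TLR4 and is high in mature monocytes, had 1, 1 and 4 counts in the wild-type libraries and 5, 2 and 3 counts in mutants C, D and Q. No comparison between genotypes was made for Cd14 at this depth.

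The chaperone of the endosomal TLRs was far above the receptors it serves. Unc93b1, which carries nucleic acid-sensing TLRs to endosomes, stood at 75.5, 65.8 and 59.3 TPM in wild types A, F and L. The 5 endosomal receptors ranged from 0.380 to 5.55 TPM in wild-type mean. Of the adaptors, Myd88 (41.0 TPM) and Ticam2 (32.4 TPM), which links TLR4 to TRIF, were above Tirap (7.82 TPM), the adaptor that brings MyD88 to the membrane, and Ticam1 (6.56 TPM), the gene of TRIF itself.

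Further down the route, Irak1 had the highest level of its class, 106, 84.6 and 92.9 TPM in wild types A, F and L. The gene of its partner kinase Irak4 had a wild-type mean of 15.1 TPM, and Irak2 and Irak3 had 3.40 and 5.49 TPM. IRAK3, also called IRAK-M, is an inhibitor of the pathway. Traf3 and Traf6 had 19.5 and 17.1 TPM, and the NF-kB genes Nfkb1 and Rela had 81.0 and 29.4 TPM.

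Among cytosolic sensors, inflammasome parts were present at very unequal levels. Pycard, the gene of the adaptor ASC, had the highest wild-type mean of the 38 genes, 101 TPM, and Casp1 had 21.3 TPM. The sensor genes Nlrc4 and Nlrp3 were lower, at 4.90 and 2.37 TPM. The DNA sensor gene Aim2, which is not among the 38, had 50.9 TPM, above Casp1. Nod1 and Nod2, receptors for bacterial peptidoglycan, had 0.787 and 0.487 TPM, below their kinase Ripk2 at 8.54 TPM. Tmem173, the gene of the adaptor STING, had 61.7 TPM and Mavs, the adaptor of the RNA sensors, 20.7 TPM, above the sensors Ifih1 (5.64 TPM) and Ddx58 (4.02 TPM).

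None of the 37 tested genes passed the test between genotypes. edgeR's quasi-likelihood test with Benjamini-Hochberg adjustment over 12222 genes called 0 of 37 at an adjusted p of 0.05, where 0.155% of all genes were called. DESeq2 called 0 of the 38 genes it tested (0.673% of all genes) and limma-voom 0 of 37 (0.262%), each with Irak3 alone at an unadjusted p under 0.05 (7.19% and 4.39% of all genes). At an unadjusted p under 0.05, edgeR had 2 of 37, Irak3 and Tlr8, a share of 5.41% beside 4.8% of all genes. Without mutant C it called 0 of 37, where 0.84% of all genes were called, and 3 of 37 had an unadjusted p under 0.05 (Irak3, Ticam2 and Casp1), a share of 8.11% beside 10.4% of all genes. These shares are near or below those of all genes. In sorted bulk cells, fewer cells of a type and less RNA per cell cannot be told apart.

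The median change of the genes was small and moved with the libraries included. The median log2 change (mutant over wild type) was -0.10 over the 37 genes and -0.02 over all tested genes, and without mutant C it was -0.02 over the 37 and -0.01 over all. Without mutant D it was -0.22 over the 37 and -0.04 over all, and without wild type A it was -0.03 over 36 and -0.0028 over all. With all libraries 15 of 37 had a fitted change above 0 (48% of all tested genes), and without mutant C 18 of 37 (48.3%). The median log2 changes of the 7 role classes ran from -0.25 to 0.18 with all libraries and from -0.07 to 0.24 without mutant C.

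The size of change that the data leave room for can be read from the 95% intervals, which are not adjusted for the number of genes. Without mutant C the interval lay within a 2-fold change either way for 30 of 37 genes (81.8% of all tested genes), and within 1.5-fold for 21 of 37 (66.8% of all). With all 6 libraries the counts were 25 of 37 (48.5% of all) and 9 of 37 (19.2%). Several abundant signalling genes had narrow intervals once mutant C was left out. With all 6 libraries their intervals were wider. They ran from -0.51 to 0.32 for Irak1, -0.53 to 0.34 for Nfkb1 and -0.53 to 0.26 for Tbk1. For Rela the interval was -0.97 to 0.38, and for Traf6 it was -1.06 to 0.56, past a 2-fold change. Without mutant C, the log2 change of Irak1 was 0.01 (interval -0.19 to 0.21), that of Nfkb1 0.03 (-0.15 to 0.21), that of Tbk1 -0.03 (-0.19 to 0.13), that of Rela -0.05 (-0.23 to 0.13) and that of Traf6 0.05 (-0.12 to 0.21). For 7 of the 37 genes the interval without mutant C reached past a 2-fold change, and these were Irak3 and 6 genes with a mean near 1 CPM or below (Tlr1, Tlr5, Tlr6, Tlr8, Tlr13 and Nod2).

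**Figure D2:**
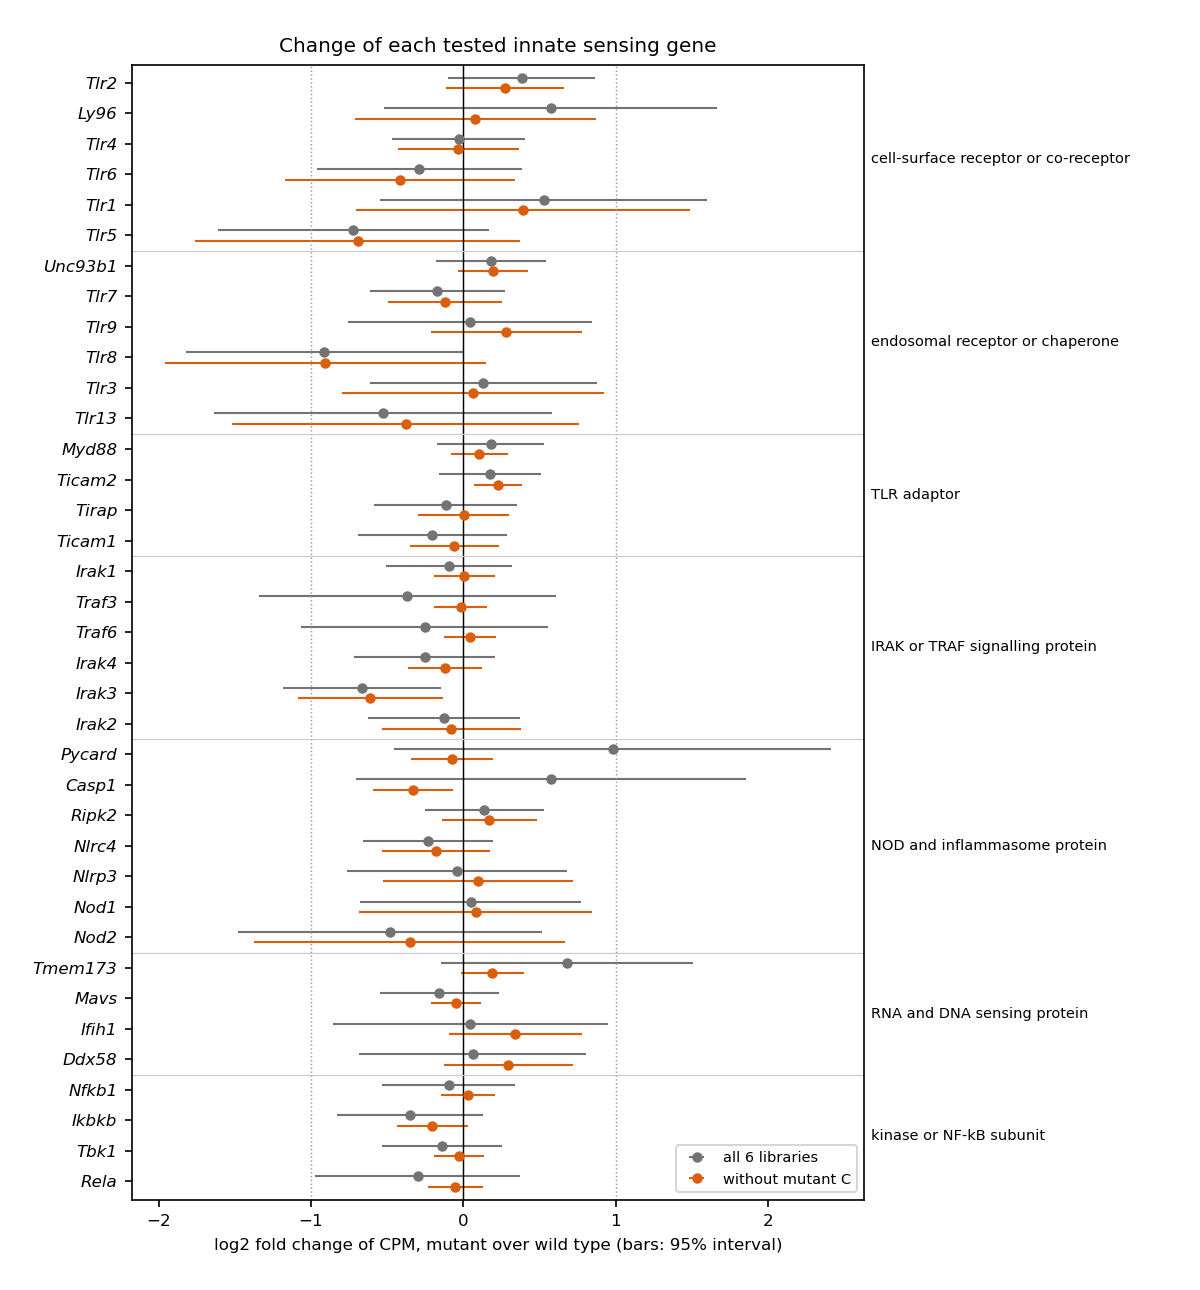
Fitted log2 change of CPM, mutant over wild type, with its 95% interval for each of the 37 tested genes, with all 6 libraries (grey) and without mutant C (orange). Dotted lines mark a 2-fold change, and the median is -0.10 with all libraries and -0.02 without mutant C.

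The cell-surface receptors showed values on both sides of no change. Tlr2 stood at 16.9, 17.6 and 14.03 CPM in wild types A, F and L and at 23.9, 22.9 and 16.6 CPM in mutants C, D and Q. Mutant Q lay inside the wild-type range for Tlr2, so the groups overlapped, with a log2 change of 0.38 (standard error 0.20). Without mutant C the change of Tlr2 was 0.27. Tlr4 had 6.56, 5.80 and 6.81 CPM in wild types A, F and L and 6.17, 6.88 and 5.73 CPM in mutants C, D and Q, with both groups over nearly the same range. Tlr5, the flagellin receptor, had 14, 9 and 11 counts in wild types A, F and L and 3, 5 and 15 counts in mutants C, D and Q. In CPM each mutant library was below each wild-type one for Tlr5, 0.592 ± 0.0517 against 0.345 ± 0.114 (SD, n = 3), and its log2 change of -0.72 did not pass (edgeR adjusted p = 0.58, and 0.63 without mutant C).

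Of the endosomal group, Tlr8 and Unc93b1 were the genes whose groups did not overlap. Tlr8, a relative of TLR7, stood at 1.23, 0.694 and 0.710 CPM in wild types A, F and L and at 0.441, 0.574 and 0.403 CPM in mutants C, D and Q. Its log2 change was -0.91 with a standard error of 0.38 (edgeR adjusted p = 0.58) at 4 to 31 counts per library. Without mutant C the change of Tlr8 was also -0.91 (edgeR adjusted p = 0.54). Unc93b1 stood at 78.8, 77.5 and 70.7 CPM in wild types A, F and L and at 82.9, 94.7 and 79.9 CPM in mutants C, D and Q, a log2 change of 0.18 (interval -0.18 to 0.54) and of 0.20 without mutant C (-0.03 to 0.43). For Tlr7 the log2 change was -0.17 and for Tlr9 0.04, with overlapping groups. Without mutant C these changes were -0.12 and 0.28.

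Tlr7, Tlr8, Tlr13 and Irak1 are on the X chromosome, and wild type A and mutant C are the 2 libraries with high Y-linked counts and low Xist. With only wild types F and L and mutants D and Q, the log2 changes were -0.23 for Tlr7, -0.55 for Tlr8, -0.54 for Tlr13 and 0.06 for Irak1, with edgeR adjusted p-values of 0.63 to 0.83. Tlr8 was higher in wild type A than in F and L, while Tlr7 was lower there (8.03 against 10.2 and 10.7 CPM). In this comparison of 4 libraries 0 of 37 genes were called and 4 had an unadjusted p under 0.05 (Unc93b1, Ticam2, Irak3 and Casp1), where 1.07% and 10.2% of all genes did.

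Of the 4 adaptors, Ticam2 was the one whose groups did not overlap. It stood at 38.6, 37.9 and 37.7 CPM in wild types A, F and L and at 38.9, 46.6 and 43.2 CPM in mutants C, D and Q. Each mutant library was above each wild-type one, with mutant C only just so. The log2 change was 0.17, and without mutant C it was 0.23 (interval 0.07 to 0.39, edgeR adjusted p = 0.28). Ticam2 overlaps Tmed7 on the same strand in GENCODE M21, so reads may be split between them, and Tmed7 had 48.3 to 74.2 CPM with a log2 change of -0.03 without mutant C. Myd88 had 38.4, 42.1 and 40.4 CPM in wild types A, F and L and 49.8, 46.3 and 41.0 CPM in mutants C, D and Q, with mutant Q inside the wild-type range.

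Irak3 had the smallest p of the 37 genes with all libraries. It stood at 9.38, 8.26 and 6.33 CPM in wild types A, F and L and at 4.52, 5.16 and 5.39 CPM in mutants C, D and Q. Each mutant library was below each wild-type one, 7.99 ± 1.54 against 5.02 ± 0.455 CPM (SD, n = 3). The log2 change was -0.66 (standard error 0.22, interval -1.18 to -0.15), and the adjusted p was 0.58 by edgeR, which does not pass. Without mutant C it was -0.61 (edgeR adjusted p = 0.35), and over the alternatives tried it ran from -1.22 to -0.47 with adjusted p from 0.30 to 0.84. Irak3 (chromosome 10, 120141648 to 120202130, minus strand) overlaps Tmbim4 on the opposite strand, and since the strandedness is not given in the sources used here, reads of the 2 genes may not be told apart. Tmbim4 stood at 28.4 to 32.7 CPM in the wild type and 98.8, 27.9 and 35.5 CPM in mutants C, D and Q.

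The neighbours of Irak3 in the pathway had values closer to no change. Without mutant C the log2 changes were 0.01 for Irak1, -0.08 for Irak2, -0.12 for Irak4, -0.02 for Traf3 and 0.05 for Traf6. Ikbkb, the kinase that releases NF-kB from its inhibitor, stood at 71.3, 62.6 and 61.3 CPM in wild types A, F and L and at 39.1, 60.4 and 53.5 CPM in mutants C, D and Q. The groups did not overlap for Ikbkb, though mutant D lay close below wild type L, and its log2 change of -0.35 (edgeR adjusted p = 0.58) was -0.20 without mutant C (interval -0.44 to 0.03).

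In all, the groups did not overlap for 7 of 37 genes, 3 higher and 4 lower in the mutant. Over all tested genes 22% did not overlap, so the share of 18.9% is not above the background. Without mutant C the count was 9 of 37 (28.8% of all genes), with Tlr6 and Casp1 lower in addition. The 3 higher genes were Unc93b1, Ticam2 and Tmem173 (10.6% of all genes were higher), and the 4 lower ones were Tlr5, Tlr8, Irak3 and Ikbkb (11.4% of all genes were lower).

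**Figure D3:**
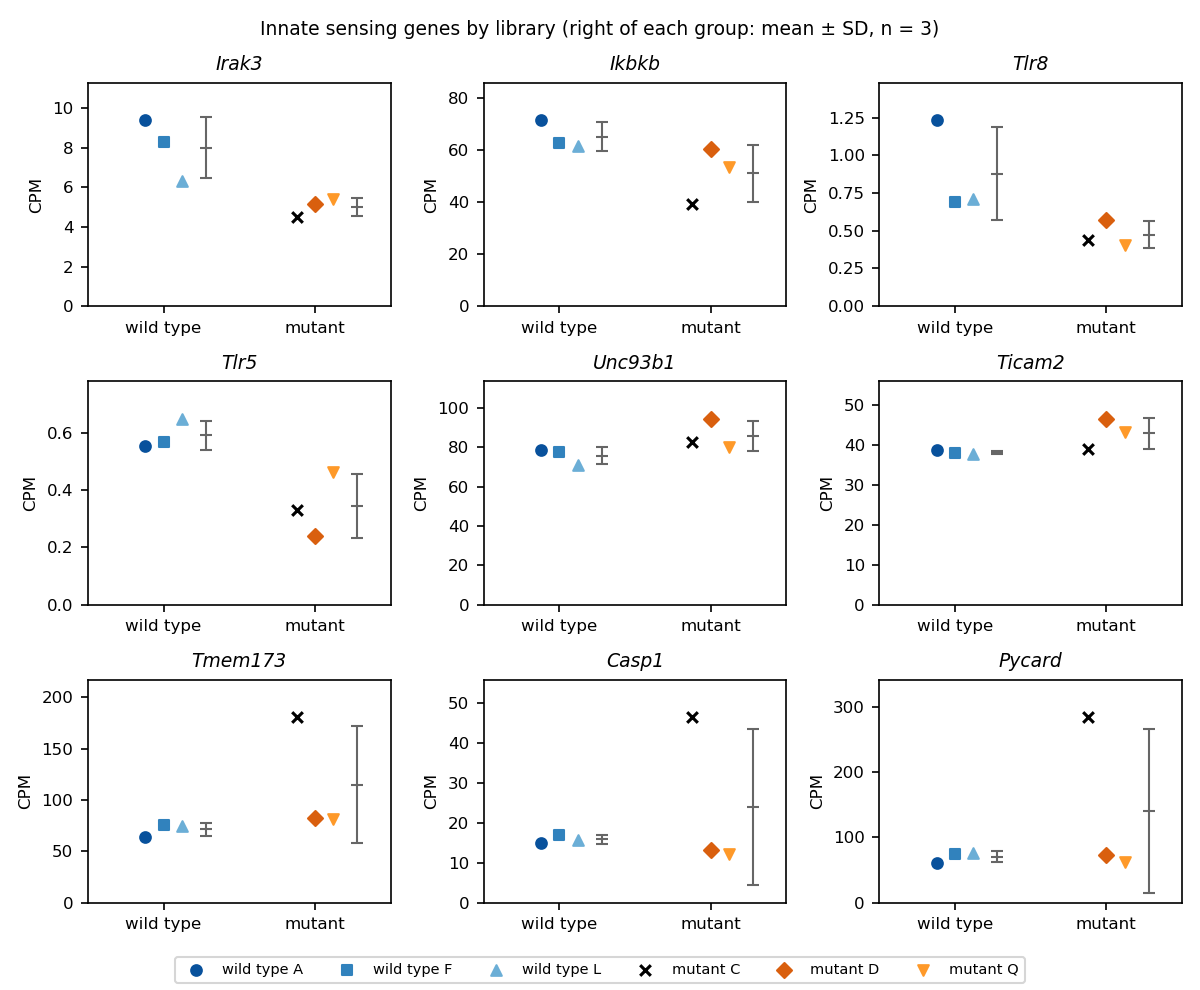
CPM of 9 genes in each library, on axes that start at 0, with the mean and SD (n = 3) of each genotype to the right of its points. For the first 7 genes the groups do not overlap, and for Casp1 and Pycard mutant C lies above all other libraries at 46.6 and 285 CPM.

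The values of 2 inflammasome genes, Pycard and Casp1, depended on mutant C. Pycard stood at 61.5, 74.7 and 76.1 CPM in wild types A, F and L, at 72.9 and 62.2 CPM in mutants D and Q, and at 285 CPM in mutant C. Its log2 change was 0.98 with all libraries (edgeR adjusted p = 0.58) and -0.07 without mutant C (interval -0.34 to 0.19). Casp1 had 14.9, 17.0 and 15.8 CPM in wild types A, F and L, 13.2 and 12.2 CPM in mutants D and Q, and 46.6 CPM in mutant C. The fitted log2 change of Casp1 was 0.58 with mutant C and -0.33 without it (interval -0.59 to -0.07, edgeR adjusted p = 0.37), so its sign rested on 1 library. Nlrp3 and Nlrc4 had log2 changes of -0.04 and -0.23 with all libraries and of 0.10 and -0.18 without mutant C.

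Tmem173 was highest in mutant C as well. It stood at 64.3, 75.5 and 75.2 CPM in wild types A, F and L and at 181, 82.6 and 81.6 CPM in mutants C, D and Q. All 3 mutant libraries were above the wild type, with a log2 change of 0.68 that became 0.19 without mutant C (interval -0.01 to 0.40, edgeR adjusted p = 0.51). The RNA sensors followed another order. Ifih1, the gene of MDA5, had 11.6, 13.49 and 11.8 CPM in wild types A, F and L and 6.28, 19.0 and 12.5 CPM in mutants C, D and Q, so that mutant C was the lowest and mutant D the highest of the 6 libraries. Ddx58 had 6.80, 7.82 and 8.23 CPM in wild types A, F and L and 4.74, 10.9 and 7.94 CPM in mutants C, D and Q, in the same pattern.

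The difference between mutant C and the other mutants went with gene length. Its log2 CPM minus the mean of mutants D and Q was above 0 for the 3 genes under 1500 bases, Ly96, Pycard and Casp1, with a median of 1.86. It was below 0 for 11 of 12 genes of 3500 bases or more, with a median of -0.59. Traf3 and Traf6, the longest of the 37 at 6655 and 6169 bases, were 3.03-fold and 2.41-fold lower in mutant C than in the mean of D and Q. Across the 37 genes, which share these libraries, Spearman's rho between length and this difference was -0.61, beside -0.75 over all tested genes. For mutant D minus mutant Q, rho was 0.05 over the 37 and 0.37 over all tested genes. Its sign follows the order of subtraction. Over all tested genes shorter genes stood higher in Q than in D. For wild type A minus the mean of F and L, rho was 0.15 over the 37 and 0.25 over all tested genes. The cause of the length pattern was not tested.

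**Figure D4:**
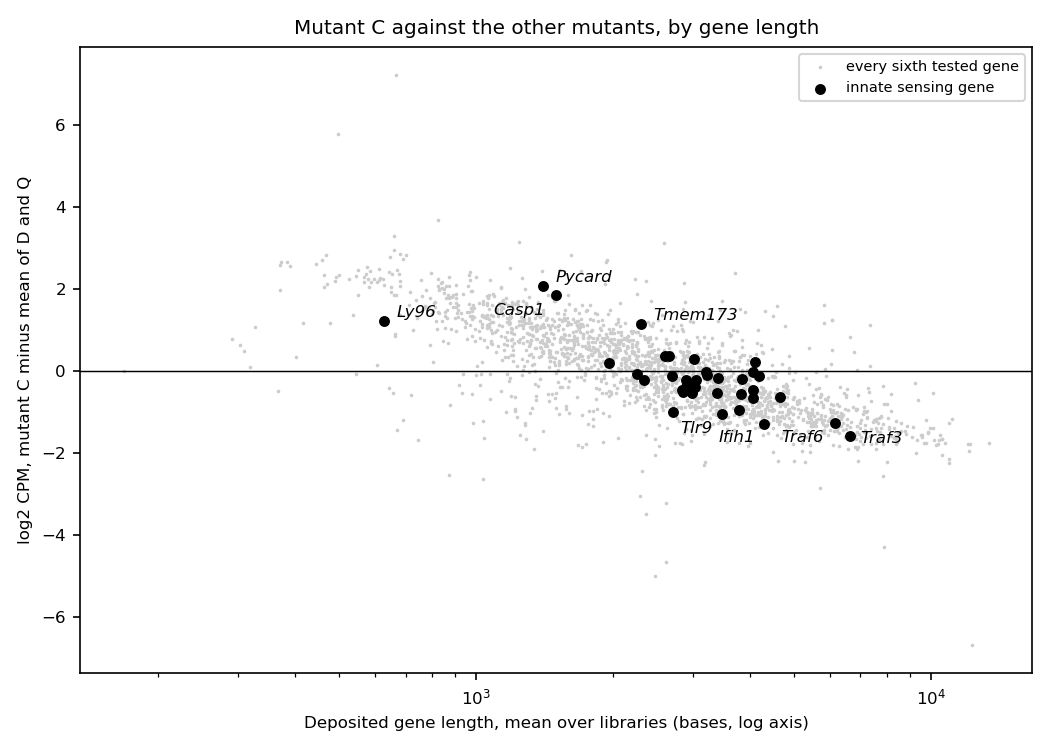
Difference of log2 CPM between mutant C and the mean of mutants D and Q against deposited gene length on a log axis, for the 37 tested genes (black) and every sixth tested gene (grey). The short genes Ly96, Pycard and Casp1 lie above 0 and the long genes Traf6 and Traf3 below -1.

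Among other genes of the pathway edgeR called 1, and only without mutant C. Of 86 further genes on 6 lists (other sensors, kinases and ubiquitin enzymes, transcription factors, inhibitors, cell death partners and inducible outputs), 72 were tested with all libraries. Of these, 0 were called by edgeR (0.155% of all genes were), while 3 had an unadjusted p below 0.05 (4.8% of all genes did). Without mutant C 1 of 73 was called, a rise (0.84% of all genes were called), while 6 had an unadjusted p below 0.05 (10.4% of all genes did). The gene called was Clec7a, the receptor for fungal beta-glucan, at 49.6, 62.7 and 59.5 CPM in wild types A, F and L and 238, 110 and 91.1 CPM in mutants C, D and Q, with a log2 change of 0.81 without mutant C (edgeR adjusted p = 0.033) and of 1.35 with it (0.58). Each mutant library was above each wild-type one for Clec7a. The median log2 change over these genes was 0.04 with all libraries and 0.05 without mutant C.

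The other values nearest to a call were spread over several roles. Besides Clec7a, the smallest p among higher genes belonged with all libraries to Mlkl, the effector of necroptosis, with a log2 change of 0.66, and to Irf5, a transcription factor below MyD88, with 0.35 (edgeR adjusted p = 0.58 for both). The smallest p among lower genes belonged to Fos, a subunit of the factor AP-1, with a log2 change of -0.87, Tnfaip3, the gene of the NF-kB inhibitor A20, with -0.47, and Naip5, a flagellin sensor with near-identical paralogs, with -0.60 (edgeR adjusted p = 0.58 for each). Without mutant C, Irf8, a factor of the monocyte and dendritic lineage, and Mlkl were next to Clec7a among higher genes, with log2 changes of 0.38 and 0.43 (edgeR adjusted p = 0.22 and 0.27). On the lower side Lbp, the gene of the lipopolysaccharide-binding protein, had -0.35, Fos -0.89 and Sharpin, a part of the linear ubiquitin ligase, -0.19 (edgeR adjusted p of 0.33 to 0.51).

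Most inducible outputs of the pathway were low in both genotypes. Ccl3, a chemokine gene, had the highest wild-type level of these (7.65 TPM) and stood at 3.30, 3.15 and 2.01 CPM in wild types A, F and L and 5.84, 2.96 and 3.01 CPM in mutants C, D and Q. Of 14 such genes 9 stayed under 1 CPM in every library, and Il10, Cxcl2 and Ifnb1 had no counts in any. Il1b had 0.0398 CPM in wild type A and 0 elsewhere, and Il6 at most 0.278 CPM. Tnf stood at 0.835, 0.820 and 1.54 CPM in wild types A, F and L and at 0.881, 1.77 and 1.74 CPM in mutants C, D and Q. By contrast the DNA sensors Aim2 and Cgas had 39.8 to 42.9 and 22.2 to 46.2 CPM over the 6 libraries.

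Markers of other cell types bear on these levels, since mature macrophages and monocytes carry many of the same genes. Of 16 monocyte and macrophage markers 0 of 11 tested were called in edgeR's fit of all libraries (1 at an unadjusted p below 0.05, where 4.8% of all genes were), and 0 of 12 without mutant C (3 below 0.05, where 10.4% of all genes were). These 3 differed in direction. Without mutant C the log2 change was -1.43 for Ly6c2, 0.88 for Mrc1 and 0.42 for Tyrobp. Ly6c2 had 2.08 to 2.35 CPM in the wild type and 4.63, 0.765 and 0.868 CPM in mutants C, D and Q. The summed level of the 16 markers was 494 to 515 CPM in the wild type and 1227, 580 and 510 CPM in mutants C, D and Q. Vsig4, a marker of resident macrophages, had no counts, and C1qa, C1qb and C1qc ran from 0.0631 to 0.567 CPM in the wild type and from 0.186 to 2.97 CPM in the mutant. Neutrophil markers (10) summed to 329 to 398 CPM in the wild type and to 1139, 334 and 359 CPM in mutants C, D and Q. Hepatoblast markers (9) summed to 51.4 to 107 CPM in the wild type and to 200, 103 and 562 CPM in mutants C, D and Q. With all libraries edgeR called 0 of these 9, but 6 had an unadjusted p below 0.05 (4.8% of all genes). Their median log2 change was 2.87. Without mutant C it called 0, with 7 below 0.05 (10.4% of all genes) and a median of 2.61. Of markers of other blood lineages, edgeR called 0 of 4 tested mast cell, 3 of 6 megakaryocyte and 1 of 7 erythroid markers with all libraries, each lower in the mutant, where 0.155% of all genes were called. Without mutant C it called 4 of 4, 4 of 6 and 3 of 7, each lower, where 0.84% of all genes were called. Gata2 is 1 of the 4 tested mast cell markers, so that call is of the gene whose enhancer was deleted. Mutant C, in which Pycard, Casp1 and Tmem173 were highest, was also the highest for the monocyte, neutrophil, erythroid (843 CPM against 131 to 394 CPM) and lymphoid (119 CPM against 38.4 to 51.4 CPM) sums. In its monocyte sum Tyrobp had 555 CPM and Lyz2 360 CPM, while Csf1r, at 149 CPM, lay within the wild-type range of 146 to 166 CPM. Ccr2 had 121 CPM there, against 111 to 118 CPM in the wild type. Short genes stood higher in mutant C over all tested genes (Spearman's rho with length of -0.75 against mutants D and Q). The parts of these markers and of gene length in the result were not tested.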

How the data were processed

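Per the labels' protocols, RNA from 6 sorted progenitor samples was extracted with Trizol and made into Illumina libraries. Bowtie 1.1.1, RSEM 1.2.18, CASAVA 1.8.2 and the build mm10 are listed, without roles, in the submitters' processing notes. The sources used here do not give strandedness, read layout or annotation release. Per the file headers, the deposited tables hold RSEM expected counts without normalization, TPM and FPKM per gene, and a gene length. FPKM values were not analysed.

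Expected counts were rounded and fitted in edgeR 4.0.16 (R 4.3.3) with TMM factors, filterByExpr (minimum count 10) and the quasi-likelihood test, adjusted by Benjamini-Hochberg over the 12222 genes tested, threshold 0.05. Standard errors were taken from the log2 change and the F statistic, and 95% intervals use the t quantile on the test's degrees of freedom. Alternatives used DESeq2 1.42.0, limma 3.58.1, log2(TPM + 1) and log2(TPM + 0.1) for genes with a mean of at least 1 TPM, a length trend removed by loess, and each library left out. Log2 CPM used a prior count of 2. The code was tested on simulated data. Symbols and mm10 positions came from GENCODE M21, which named 24448 identifiers.

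The genes and lists were chosen with earlier results of these data known, so no test was made over a list. Any of the 38 genes could be named; values in full went to the 2 smallest p and the highest TPM per role class, and, of the further pathway genes, to called genes and the 3 smallest p in each direction. The remaining genes with values in full (such as Tlr4, Tlr7 and Ddx58) were chosen after their values were seen.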

Additional observations from a re-analysis of the deposited data

How the results depend on the processing

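No paired analysis was possible because the replicate letters differ between the genotypes. Of the 37 innate sensing genes tested (38 without a filter and by DESeq2, 29 on the TPM scale, 36 without wild type A), 0 were called under each of 17 alternative settings, 4 of them added after seeing the data. Over all genes, 19 were called with all 6 libraries by edgeR, and 36 without the low-count filter, 124 by DESeq2, 32 by limma-voom, 9 on log2(TPM + 0.1) and 53 with the length trend removed. Leaving out 1 library gave 0 to 106, the highest without mutant C and 0 without any other. Chosen after seeing the data, DESeq2, limma-voom and the length correction without mutant C called 238, 111 and 142 genes, and edgeR without wild type A and mutant C called 131.

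The median log2 change of the innate sensing genes, -0.10, moved to -0.49 on log2(TPM + 1) and -0.70 on log2(TPM + 0.1), where the median of all genes was -0.54 and -0.62. The shift on this scale was mostly in mutant C. Over the genes past the low-count filter, the median log2(TPM + 1) minus the wild-type mean was -1.21 in mutant C. In mutants D and Q it was -0.04 and -0.20. The cause was not tested.

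For 16 genes named by rule, 227 of 267 single values kept their sign, and 5 genes (Irak3, Irak4, Ikbkb, Tlr5 and Tlr8) kept it in each setting run. On log2(TPM + 1) the sign turned for Tlr2 (-0.22), Unc93b1 (-0.44), Myd88 (-0.44), Ticam2 (-0.44), Pycard (-0.0025), Casp1 (-0.31), Ifih1 (-0.48) and Tmem173 (-0.048). On log2(TPM + 0.1) these genes had -0.25, -0.45, -0.45, -0.46, -0.0029, -0.33, -0.70 and -0.049. Removing the length trend gave Casp1 -0.013, and limma-voom gave Ifih1 -0.027. Leaving out 1 library gave ranges of -0.17 to 0.0064 for Irak1, -0.074 to 1.35 for Pycard, -0.33 to 0.91 for Casp1 and -0.19 to 0.031 for Nfkb1, with the turned sign without mutant C, and of -0.37 to 0.34 for Ifih1, turned without mutant D. The added fits turned the same 4 genes. DESeq2 without mutant C gave Irak1 0.017, Pycard -0.064, Casp1 -0.32 and Nfkb1 0.042. In the same order limma-voom gave 0.0078, -0.072, -0.33 and 0.031, and the length correction gave 0.029, -0.13, -0.38 and 0.047. Without wild type A and mutant C they were 0.065, -0.16, -0.37 and 0.017, and Rela was at 0.0078. The cause was not tested. Depth limits Tlr5, Tlr8 and Cd14, at 1 to 31 counts per library.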

Other observations

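Single libraries set the extreme values of several innate sensing genes. Of the 37 tested, mutant C was the lowest library for 21 and the highest for 7, and wild type A was the highest for 13.

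In wild type A, Nod2 stood at 1.71 CPM against 0.757 and 0.888 CPM in F and L, Nlrp3 at 5.77 against 3.85 and 3.61 CPM, and Irak3 and Tlr8 were also at their highest.

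In mutant D, the RNA sensor genes Ddx58 and Ifih1 were at their highest together with Dhx58, which encodes another RIG-I-like receptor, at 9.94 CPM against 3.34 to 4.69 CPM in the other 5 libraries, and Irf7, the interferon-inducible transcription factor gene, at 5.59 CPM against 1.45 to 2.53 CPM. Mutant Q, of the same genotype, stood at 3.81 CPM for Dhx58 and 1.92 CPM for Irf7. Dhx58 and Irf7 were picked after their values were seen. Other sensor and output genes, such as Tlr3 and Cxcl10, were highest in other libraries.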
